A study of Sus scrofa with 12 samples.

Results

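Intestinal identity transcription factors are the DNA-binding proteins that make gut epithelium intestinal and, in the small intestine, absorptive. A list of 9 was taken by gene symbol: CDX1, CDX2, HNF4A, HNF4G, GATA4, GATA6, KLF4, KLF5 and ONECUT2. The array's annotation named 25 probe sets for 8 of them, out of 47722 probe sets for 13664 genes in all. No probe set carried the symbol CDX1, which is not analysed here. Each probe set reads 1 transcript, or a stretch of it, through several short probes. The main value of each gene is its probe set of the highest mean over the 12 arrays.

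The study compared jejunal mucosa, the lining of the middle small intestine, of 12 pigs aged 140 days with high (label 1) or low (label 2) feed efficiency. Each group had 6 pigs, 3 males and 3 females, with 1 array of the pig Snowball design per pig. The high group was pigs 301, 302 and 303 (male) and 304, 317 and 318 (female), and the low group was pigs 307, 308 and 309 (male) and 310, 323 and 324 (female). The labels give no scoring of feed efficiency, no breed, no diet and no cell makeup of the mucosa.

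CDX2 and its relative CDX1 are homeobox proteins that set intestinal rather than gastric identity in the mouse, and CDX2 binds near many brush border genes. HNF4A and HNF4G are paired nuclear receptors that switch on enterocyte genes for digestion and fat absorption. GATA4 and GATA6 are zinc finger proteins, of which GATA4 in the mouse marks the proximal small intestine and separates jejunum from ileum. KLF4 is found mainly in differentiated epithelial cells and KLF5 mainly in dividing crypt cells, and ONECUT2 is a cut-homeobox protein of the hepatocyte nuclear factor 6 family.

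Array medians lay between 4.02 and 4.16 on the log2 scale, on which 1 unit is a doubling of signal. The 12 negative control probe sets had means up to 1.90. The 69 background control probe sets, graded by their number of G and C bases, had means from 1.21 to 7.70, the highest at 22 to 24 G and C bases. The base content of the members' probes was not known, so a mean below 7.70 cannot be placed above the background of GC-rich probes. The absorptive score used below is the mean, per array, of 27 measured genes of absorptive cells (digestive enzymes, nutrient transporters and fat-handling proteins). Among these, SLC46A1 had a mean of 1.90, level with the highest negative control, and only the other 26 passed the filter for testing. The score was 7.41 in pig 301 and 8.52 to 9.67 in the other 11 pigs. Pig 301 also had the lowest array weight, 0.402 against 0.698 to 1.64. A score of 9 measured stomach genes was 7.17 in pig 301 and 4.15 to 5.02 in the others, among them TFF2 at 13.41 against 8.13 to 10.60 and MUC5AC at 9.90 against 5.41 to 6.17. Results that rest on pig 301 are therefore given with and without it.

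CDX2 (probe set SNOWBALL_013752_st) varied least of the 8 outside pig 301, with an SD of 0.102 over the other 11 pigs. In the high group its lowest, median and highest log2 signals were 7.19, 7.75 and 7.91, and in the low group 7.66, 7.86 and 7.96. The value of 7.19 was pig 301, and the remaining 11 pigs overlapped between groups. The other CDX2 probe set had a mean of 4.50 and did not follow the first (r = -0.13 over the 12 pigs).

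HNF4A (SNOWBALL_019375_st) was narrow, with a range of 0.516 over the 12 pigs. Its lowest, median and highest values were 8.14, 8.38 and 8.64 in the high group and 8.13, 8.38 and 8.49 in the low group. The groups had nearly the same median, and pig 301 lay inside the range at 8.35. HNF4G (SNOWBALL_005682_st), its paralog, had the widest range of the 8, 1.98 log2 units. It ran from 8.60 through a median of 9.46 to 10.25 in the high group and from 9.40 through 9.69 to 10.58 in the low group. Pig 301 was lowest at 8.60, pig 317 next at 9.10, and the low males 307 and 309 were highest at 10.58 and 10.44.

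GATA4 (SNOWBALL_022669_st) had its lowest, median and highest values at 7.62, 7.94 and 8.18 in the high group and at 7.98, 8.17 and 8.38 in the low group. The groups overlapped between 7.98 and 8.18, with pig 301 lowest and the low females 323 and 324 highest at 8.32 and 8.38. GATA6 (SNOWBALL_009051_st) stayed between 7.09 and 7.57 in all 12 pigs. Its group medians were 7.38 in the high and 7.39 in the low group, and pig 301 was mid-range at 7.31. The mean of GATA6, 7.36, lay below the highest background mean, and its signal moved against the GC-rich background (20 to 25 G and C bases) across the 12 pigs (r = -0.797, permutation p = 0.00114; rho = -0.629, permutation p = 0.0328). With that background as a term in the model, added after seeing the data, the feed efficiency difference of GATA6 was 0.03 and its slope on the absorptive score 0.06, neither of which passed.

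KLF4 (SNOWBALL_000098_s_st) ran from 5.93 through a median of 6.30 to 6.57 in the high group and from 6.31 through 6.56 to 6.95 in the low group. The groups overlapped between 6.31 and 6.57, the highest value was the low male 309, and pig 301 lay at 6.45. KLF5 (SNOWBALL_014045_st) ran from 9.63 through 10.21 to 10.36 in the high group and from 9.66 through 9.996 to 10.52 in the low group. Its 2 lowest pigs were 301 at 9.63 and the low female 324 at 9.66, so each group held one. ONECUT2 (SNOWBALL_040429_st) ran from 6.19 through 7.32 to 7.88 in the high group and from 6.51 through 7.05 to 7.91 in the low group. Pigs 301 and 324 were again lowest, at 6.19 and 6.51, and pig 307 of the low group and pig 303 of the high group were highest. The means of KLF4, 6.42, and ONECUT2, 7.16, lay below the highest background mean, and those of KLF5, HNF4G, HNF4A, GATA4 and CDX2 above it.

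**Figure D1:**
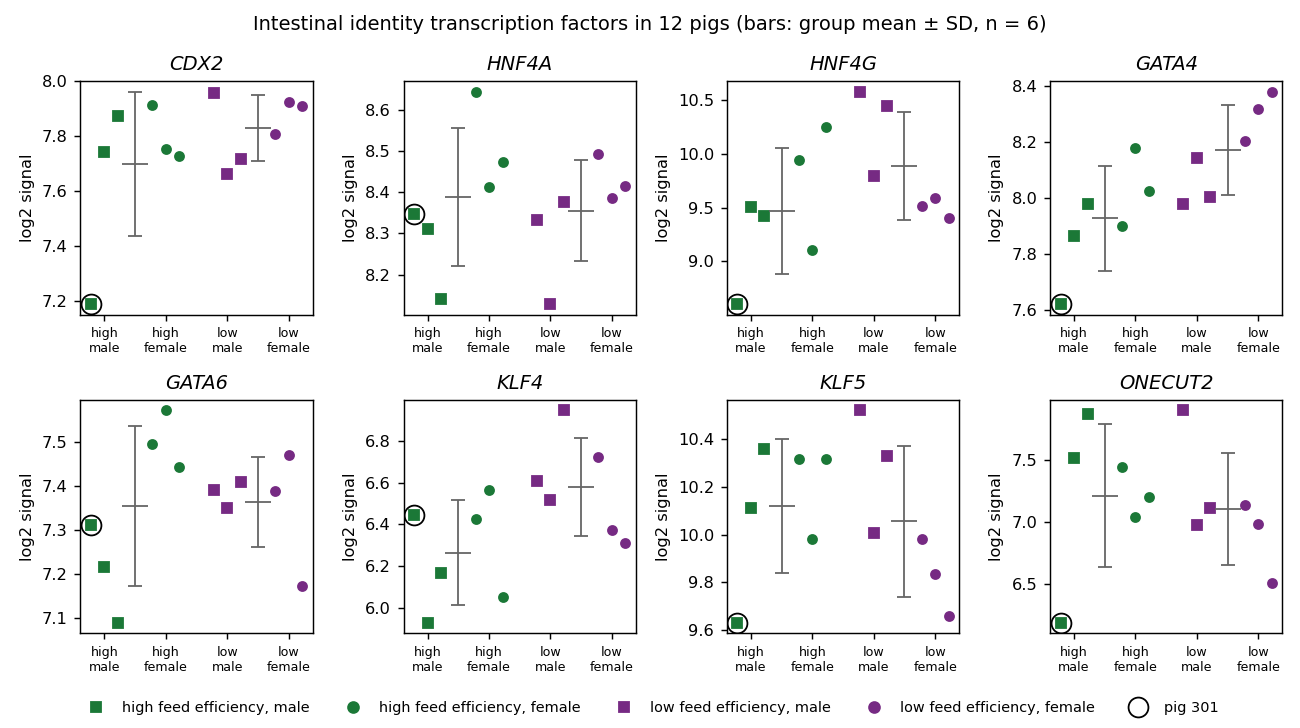
Log2 signal of the main probe set of each of the 8 transcription factors, one point per pig, split by feed efficiency group and sex, with the group mean and SD over 6 pigs as bars. Pig 301, circled, is the lowest point for CDX2, HNF4G, GATA4, KLF5 and ONECUT2 and lies inside the range for HNF4A, GATA6 and KLF4.

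Several genes had more than 1 probe set, and these did not always rise and fall together. For KLF4 the other probe set followed the main one at r = 0.80, for KLF5 the second brightest did so at r = 0.83 (0.945 without pig 301), and for ONECUT2 the next in brightness did so at r = 0.567 and 0.734. For HNF4A the probe sets of means 8.30 and 8.21 followed the main one only at r = 0.331 and 0.218. For GATA4 the probe set of mean 5.57 ran at r = -0.214 against the main one. The other HNF4G probe sets, of means 7.32 and 5.94, correlated with the main one at 0.40 and 0.432 over 12 pigs and at 0.082 and -0.016 without pig 301. The brighter of these read 5.83 to 6.63 in pigs 301, 302, 303 and 304 and 7.52 to 8.45 in the other 8. These r values are descriptions of 12 arrays, and the main probe set of a gene therefore does not stand for every transcript of it.

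The labels single out no pig, but pig 301 separated from the others in absorptive genes, and the transcription factors were compared with it. Pig 301 was the lowest of the 12 for 5 of the 8 main probe sets and for 7 of all 22 tested probe sets of these genes (31.8%), and the highest for none. All 3 HNF4G probe sets were lowest in it, whereas the other tested probe sets of CDX2, GATA4, KLF5 and ONECUT2 were not. Over all 35791 tested probe sets it was the lowest for 11.5% and the highest for 14.6%. HNF4G was 1.17 log2 units or 2.26-fold under the mean of the other 11 pigs, and KLF5 was 1.41-fold under it. ONECUT2 differed from that mean by -1.06, CDX2 by -0.63 and GATA4 by -0.47, and HNF4A, GATA6 and KLF4 by -0.03, -0.05 and 0.03. The ONECUT2, CDX2 and GATA4 signals of pig 301, 6.19, 7.19 and 7.62, lay below 7.70, so background may compress these differences, and no fold is given for them. The comparison sets 1 pig against 11 and has no replicate, so no test was made. In bulk tissue, fewer cells of a type and less RNA per cell cannot be told apart.

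Absorptive genes were much further down in the same pig: 24 of 27 were at their lowest of the 12 arrays, with a median difference of -1.88 against -0.48 for the 8 transcription factors. SI, the brush border sucrase-isomaltase, differed by -3.17, and APOC3, an apolipoprotein, by -3.48. Stomach genes went the other way, with 7 of 9 at their highest and a median of 2.94. SOX2 differed by -0.22, and the mean of ANXA10 was under that of the highest negative control. All 8 measured goblet cell genes were above the mean of the other pigs, with a median of 1.00, and 8 of 9 fibroblast genes were above it, with a median of 0.69. The 15 pan-epithelial genes had a median of -0.26. Of 28 other measured gut transcription factors, 7 were lowest and 6 highest in pig 301, with a median of -0.08. NR1I3, a nuclear receptor of drug metabolism, was furthest down at -1.76, and EHF and SOX9, transcription factors of epithelial and progenitor cells, were highest of the 12 pigs at 8.11 and 7.95. ELF3, SOX2 and ATOH1 each stand in more than 1 of these lists. The part of these other cell types in the members' low values was not tested.

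**Figure D2:**
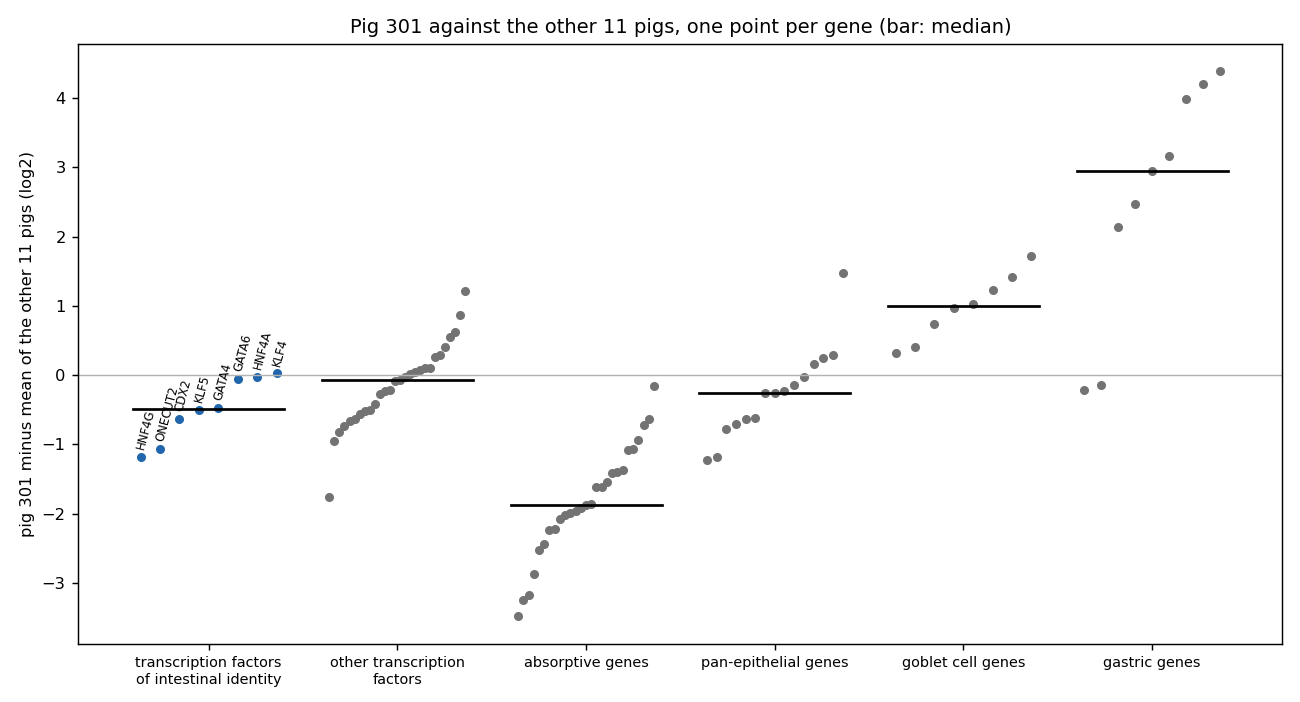
Difference on the log2 scale between pig 301 and the mean of the other 11 pigs, one point per gene, for the 8 transcription factors and 5 gene lists, with the median of each as a bar. The transcription factors run from -1.17 (HNF4G) to 0.03 (KLF4), the absorptive genes lie all below 0 with a median of -1.88, and 7 of 9 stomach genes lie above 2.

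The relation of each transcription factor to absorptive genes over the 12 arrays was fitted as a slope, the change in its log2 signal per 1 log2 unit of absorptive score, with feed efficiency and sex in the limma model. Over all 35791 probe sets, 495 (1.38%) had a positive and 226 (0.631%) a negative slope at an adjusted p under 0.05. ONECUT2 was the 1 member of 8 that rose with the score, at 0.73 (SE 0.138, limma adjusted p = 0.0257). KLF5 at 0.40 (SE 0.103, limma adjusted p = 0.0706), HNF4G at 0.67 (SE 0.187, limma adjusted p = 0.0908) and CDX2 at 0.23 (SE 0.0938, limma adjusted p = 0.216) had positive slopes that did not pass. The slopes of HNF4A, GATA4, GATA6 and KLF4 were 0.02, 0.04, 0.06 and -0.0033, with SEs from 0.0869 to 0.139.

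The calls and the slopes changed when pig 301 was left out, whose score is far from the rest. Without it 1 probe set of 35791 (0.00279%) had a positive slope and 0% a negative slope that passed, and at an unadjusted p under 0.05 the shares were 4.49% positive and 3.12% negative. The slope of ONECUT2 was then 0.58 (SE 0.299, limma adjusted p = 0.698), so its call was lost and its SE was larger. It was also lost without pig 307 (adjusted p = 0.0593) or pig 324 (adjusted p = 0.0531), with array weights (adjusted p = 0.0888), with the mean of all ONECUT2 probe sets (adjusted p = 0.119), without the group terms (adjusted p = 0.0805) and with the pan-epithelial score in the model (adjusted p = 0.0624). KLF5 had a slope of 0.48 (SE 0.223) and HNF4G one of 0.85 (SE 0.405) without pig 301, both larger than with it, with limma adjusted p-values of 0.67 and 0.672. The slope of CDX2 was 0.0027 (SE 0.188) without that pig, and that of GATA4 was -0.24 (SE 0.171). Those of HNF4A, GATA6 and KLF4 were then 0.22 (SE 0.175), 0.31 (SE 0.184) and 0.37 (SE 0.273). All 3 were further from 0 than with pig 301, and none passed. The ONECUT2 probe set of mean 6.11 had a slope of 0.44 with pig 301 and 0.87 without it (limma adjusted p = 0.0773 and 0.302). For the GATA4 probe set of mean 5.57 the slopes were 0.14 and 0.65 (limma adjusted p = 0.663 and 0.644), opposite in sign to the main one without pig 301.

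Plain correlations with the score were computed as well. CDX2 had r = 0.748 over 12 pigs (permutation p = 0.0502) but rho = 0.266 (permutation p = 0.408). Its r was -0.088 without pig 301, so the relation rests on that pig. Without pigs 301 and 324, the 2 farthest from the median score, r was 0.227. The high group and the males, which hold pig 301, had r of 0.924 and 0.912 (exact permutation p = 0.129 and 0.0444). The low group and the females, which do not, had r of -0.023 and -0.391 (exact permutation p = 0.965 and 0.582).

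HNF4G had r = 0.758 (permutation p = 0.00184) and rho = 0.727 (permutation p = 0.0102). Its r was 0.597 without pig 301 and 0.637 without both far pigs, 0.75 in the high and 0.767 in the low group, 0.876 in males and 0.333 in females, so the relation had the same sign in each subset. Its other probe sets, however, had r of -0.185 and -0.098 with the score without pig 301.

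KLF5 had r = 0.731 (permutation p = 0.00134) and rho = 0.636 (permutation p = 0.0294), and ONECUT2 had r = 0.768 (permutation p = 0.00211) and rho = 0.699 (permutation p = 0.0138). Without pig 301 they had r = 0.694 and 0.601 (permutation p = 0.0145 and 0.0502). Without both far pigs, which narrows the range of the score, r was 0.461 and 0.282 (permutation p = 0.18 and 0.428): still positive, but passing the threshold depended on pigs 301 and 324 for KLF5 and on pig 301 for ONECUT2. Within groups, KLF5 had r = 0.818 in the high and 0.868 in the low group, and 0.882 in males and 0.68 in females. ONECUT2 had r = 0.834 in the high and 0.845 in the low group, and 0.808 in males and 0.875 in females. The second KLF5 probe set had r = 0.429 over 12 pigs and 0.832 without pig 301, where it read 9.11, inside the range of the others. The ONECUT2 probe set of mean 6.11 had r = 0.729 over 12 pigs and 0.838 without pig 301 (permutation p = 0.0117 and 0.00313). Its rho was 0.664 and 0.573. For the ONECUT2 probe sets of means 7.02, 2.48 and 1.565, r was 0.409, 0.048 and 0.516 over 12 pigs. Without pig 301 these were 0.511, 0.127 and 0.411.

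GATA4 had r = 0.332 over 12 pigs and -0.611 without pig 301 (permutation p = 0.0407; rho = -0.536, permutation p = 0.0926). The r was 0.752 in the high group, which holds pig 301, and -0.818 in the low group, and without both far pigs it was -0.325 (permutation p = 0.355). The GATA4 probe set of mean 5.57 had r = 0.303 over 12 pigs. Without pig 301 it went the other way from the main one, at r = 0.515 (permutation p = 0.107, rho = 0.636, permutation p = 0.0408). The untested GATA4 probe set of mean 2.10 had r = -0.266 there. A fall with the score was thus not seen in every GATA4 probe set. The main GATA4 probe set ran more closely with the pan-epithelial score, at r = 0.86 (permutation p = 0.00021; rho = 0.853) and 0.802 without pig 301. Without pig 301 it also ran with the stomach gene score, at r = 0.82 (permutation p = 0.0019), against -0.42 with that pig. The spread of each array (SD of its log2 values) ran with GATA4 at r = 0.735, and at 0.768 without pig 301. It ran against ONECUT2 and KLF5 at r = -0.40 and -0.368, and at -0.735 and -0.596 without pig 301 (permutation p = 0.00955 and 0.0545). With that spread in the model over 12 pigs, the slope of ONECUT2 on the absorptive score was 0.71 (limma adjusted p = 0.0177). That model was not fitted without pig 301, where the r with the spread was larger in size. The part of the spread in the slope was therefore not tested there. HNF4A, GATA6 and KLF4 had r of 0.121, 0.299 and 0.133 with the absorptive score (permutation p = 0.658, 0.346 and 0.663). None of these main probe sets had an r above 0.42 in size when pig 301 or both far pigs were left out. The HNF4A probe set of mean 4.49 had r = 0.139 over 12 pigs and 0.603 without pig 301 (permutation p = 0.611 and 0.0596). For the HNF4A probe sets of means 8.30, 8.21 and 2.67, r without pig 301 was 0.27, -0.258 and -0.098. Within subsets, GATA6 had r = 0.793 in the low and 0.147 in the high group, and 0.805 in females and 0.121 in males. KLF4 had r = 0.744 in the low and -0.412 in the high group, and HNF4A had 0.102 and 0.182. In all, 40 relations of main probe sets over 12 pigs were computed, for 8 genes and 5 measures. Further ones were computed without pig 301, in subsets and for other probe sets. All permutation p-values of these correlations are unadjusted. The adjusted p-values of the slopes above come from a different model, with feed efficiency and sex as terms, and do not adjust them.

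**Figure D3:**
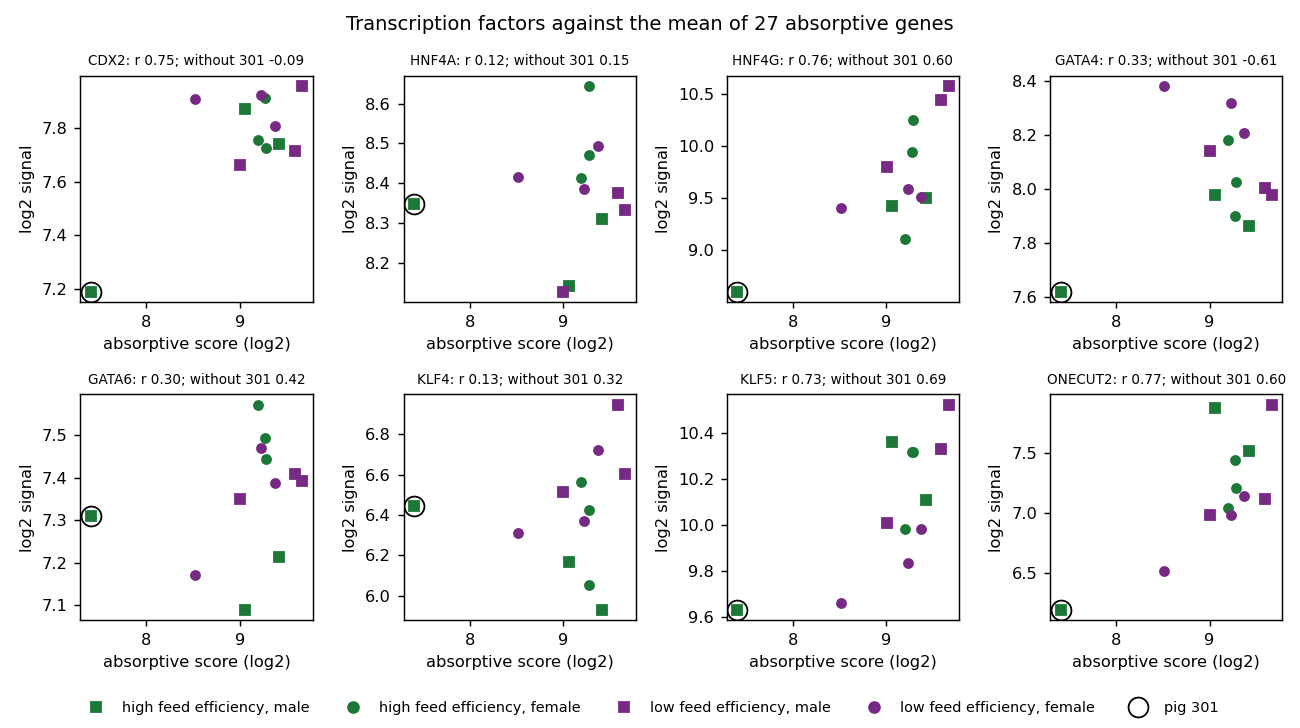
Log2 signal of the main probe set of each transcription factor (vertical axis) against the absorptive score, the mean log2 signal of 27 absorptive genes (horizontal axis). Each point is a pig, and each panel title gives Pearson r with and without pig 301. Pig 301, circled, stands far to the left at 7.41; CDX2 is flat among the other 11 pigs, HNF4G, KLF5 and ONECUT2 still slope upward, and GATA4 slopes downward.

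The same contrast appeared for the main probe sets when each absorptive gene was taken alone, a description of 27 genes that share the same 12 arrays. CDX2 correlated positively with 27 of 27 absorptive genes over 12 pigs, with a median r of 0.648, but with 9 of 27 over 11 pigs, with a median of -0.06. For HNF4G the count went from 26 to 23 and the median from 0.698 to 0.447, for KLF5 from 26 to 22 and from 0.613 to 0.412, and for ONECUT2 from 26 to 22 and from 0.612 to 0.233. GATA4 went from 24 positive to 8, with a lowest r of -0.837, whereas HNF4A had 22 positive in both, with medians of 0.115 and 0.102. GATA6 had 25 in both and KLF4 went from 24 to 25, with medians without pig 301 of 0.32 and 0.271.

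**Figure D4:**
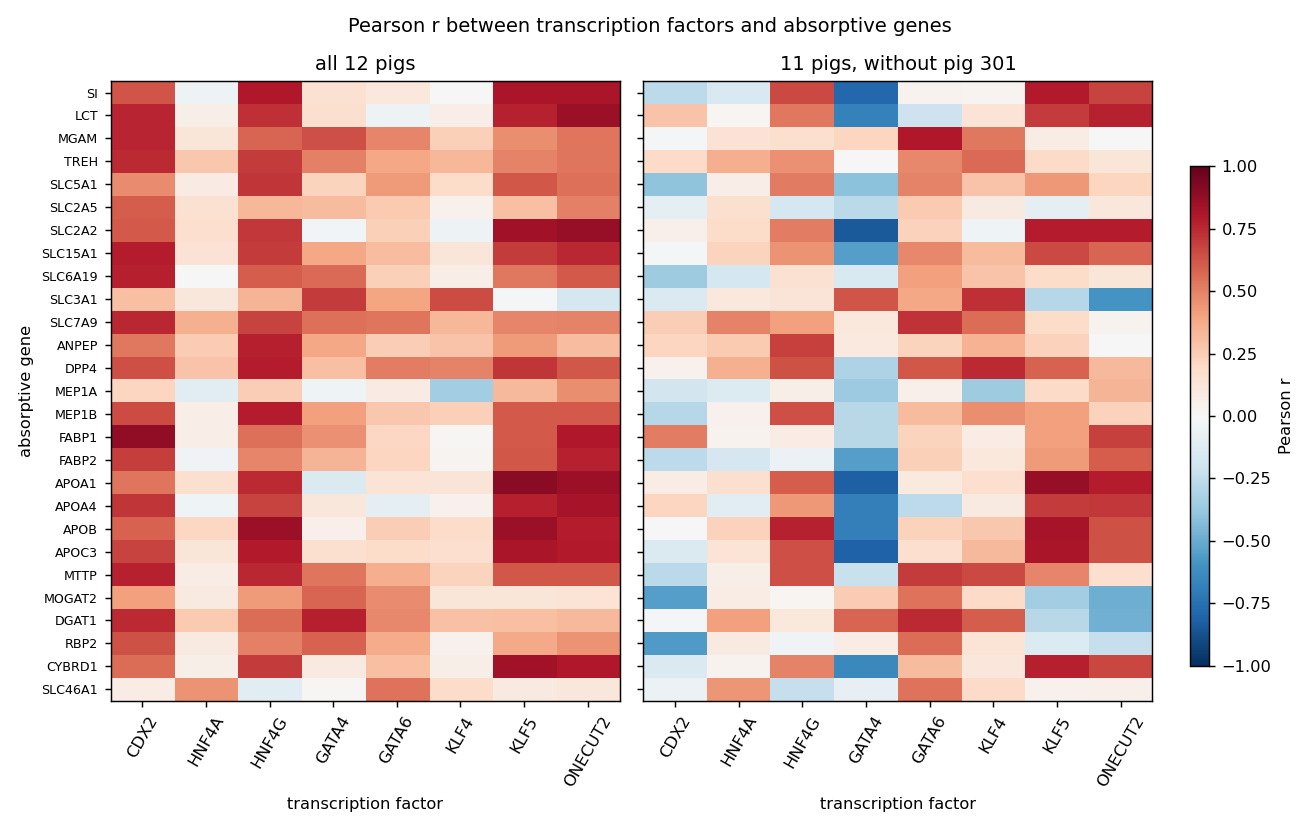
Pearson r between the main probe set of each of the 8 transcription factors (columns) and each of 27 absorptive genes (rows). All 12 pigs are on the left and the 11 pigs without pig 301 on the right, from -1 (blue) to 1 (red). The CDX2 column changes from red to pale, the GATA4 column turns blue for SLC2A2, APOA1 and APOC3, and the KLF5 column stays red for the apolipoproteins.

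Among themselves, the 8 transcription factors formed 28 pairs, of which 21 had a positive r over 12 pigs and 19 without pig 301. KLF5 and ONECUT2 were the closest pair, at r = 0.88 and 0.837 without pig 301, followed by HNF4G and KLF5 at 0.782 and 0.695. CDX2 with ONECUT2 went from 0.634 to 0.246 when pig 301 was left out. GATA4 ran opposite to KLF5 and ONECUT2 among the 11 pigs, at -0.839 and -0.788, against -0.233 and -0.079 over 12. HNF4A and HNF4G, the paralogs, had r = 0.121, and GATA4 and GATA6 had r = 0.122.

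The genes most like each member were taken by r over the 12 pigs after the feed efficiency and sex means were removed, among 12579 genes. CDX2 was most like SRSF1, UIMC1 and CHD1L (r = 0.958, 0.952 and 0.949; 0.881, 0.964 and 0.818 without pig 301). KLF5 was most like NUFIP2, PKN2 and CPOX (0.98, 0.977 and 0.971), and ONECUT2 like LCORL, GRAMD1C and UBE2K. HNF4G was most like PTAR1, XRN1 and RC3H2 (0.947, 0.943 and 0.942), and HNF4A like MIR1839, NEGR1 and CABLES1. GATA4 was most like PPA2, NEXN and OXCT1 (0.94, 0.928 and 0.916), GATA6 like PNPLA2, CADPS and GPR39, and KLF4 like SPINT1, LOC396867 and CHST4. Without pig 301 the nearest genes were UIMC1 for CDX2, FAM46A for HNF4A, PHF3 for HNF4G and CAPN2 for GATA4. They were MTTP, a gene of the absorptive score, for GATA6, SPINT1 for KLF4, UBE2L6 for KLF5 and IFI35 for ONECUT2. Their r without pig 301 ran from 0.947 (PHF3) to 0.965 (UBE2L6). Over 12 pigs the same pairs ran from 0.32 (MTTP) to 0.952 (UIMC1), with CAPN2 at 0.441 and FAM46A at 0.574. Each gene is the highest of 12579 over few arrays, a choice that by itself gives a high r, and none was tested.

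High was compared with low feed efficiency in limma with sex as a term. No member passed: 0 of the 35791 probe sets (0%) did at an adjusted p under 0.05, and 2789 (7.79%) had an unadjusted p under 0.05. Among the 22 tested probe sets of the members, 4 (18.2%) had an unadjusted p under 0.05, and the 22 are not independent because they share genes. Differences are given as high minus low on the log2 scale. The 8 main probe sets had a median difference of -0.07, against -0.0072 for all tested probe sets.

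GATA4 was lower in the high group by 0.24 (mean 7.93 ± 0.188 against 8.17 ± 0.163, SD, n = 6 each), with a 95% interval of -0.47 to -0.02 and a limma adjusted p of 0.63. The difference was -0.20 without pig 301 and -0.03 when all GATA4 probe sets were averaged. The pan-epithelial score was lower in the high group by 0.128 (exact permutation p = 0.01 within sex, where the smallest possible is 0.005), the smallest p of 5 scores compared and 0.05 after adjustment over them. Its part in the GATA4 difference was not tested. KLF4 had a difference of -0.32 (6.26 ± 0.252 against 6.58 ± 0.236, n = 6 each; 95% interval -0.65 to 0.01; limma adjusted p = 0.651) and of -0.35 without pig 301. HNF4G had a difference of -0.42 (9.47 ± 0.586 against 9.89 ± 0.502, n = 6 each; 95% interval -1.06 to 0.22; limma adjusted p = 0.741), which was -0.21 without pig 301. Its other probe sets, of means 7.32 and 5.94, differed by -1.04 and -0.59 (limma adjusted p = 0.621 and 0.63), on the same side. Both means lay below the highest background mean, 7.70, so background may compress these differences. In both of these probe sets, high pigs 301, 302, 303 and 304 lay below the range of the low group. High pigs 317 and 318 lay inside that range. Pigs 301, 302, 303 and 304 also had the lowest array spreads (SD of log2 values), 2.15 to 2.19, against 2.23 to 2.28 in the remaining pigs. The part of array spread in the differences of these probe sets was not tested.

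CDX2 differed by -0.13 (95% interval -0.41 to 0.15) and by -0.03 without pig 301. ONECUT2 differed by 0.11 (95% interval -0.50 to 0.71) and by 0.36 without pig 301 (limma adjusted p = 0.461). KLF5 differed by 0.06, HNF4A by 0.03 and GATA6 by -0.0098, with 95% intervals of -0.31 to 0.44, -0.18 to 0.25 and -0.24 to 0.22. These intervals leave room for differences of either sign. Other HNF4A probe sets differed in opposite directions: that of mean 4.49 by 0.40 (95% interval 0.06 to 0.74, limma adjusted p = 0.63) and that of mean 8.21 by -0.21 (95% interval -0.47 to 0.04, limma adjusted p = 0.683). The absorptive score itself differed by -0.29 (8.94 ± 0.76 against 9.23 ± 0.424, n = 6 each; exact permutation p = 0.535).

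**Figure D5:**
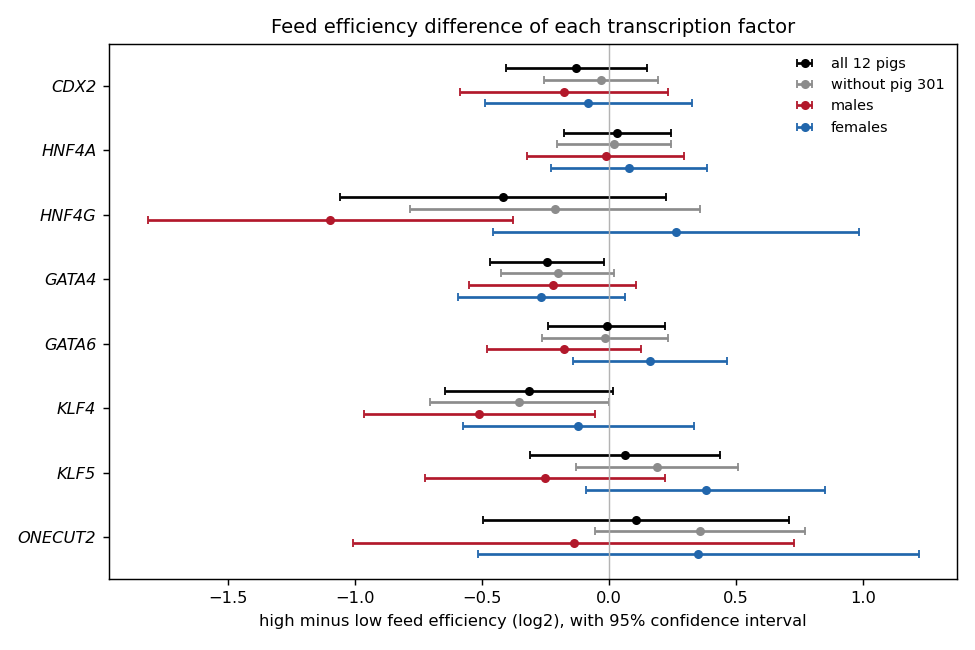
Difference between high and low feed efficiency on the log2 scale for the main probe set of each of the 8 transcription factors. Estimates with 95% confidence intervals from limma are shown over all 12 pigs, without pig 301, and within males and females of all 12 pigs. The largest male estimate is HNF4G at -1.10, where the female estimate is 0.26, and no estimate passed adjustment over all probe sets.

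Within males, HNF4G was 9.18 ± 0.499 in the high and 10.27 ± 0.417 in the low group (SD, n = 3 each), a limma difference of -1.10 (SE 0.328, adjusted p = 0.396). Within females it was 9.76 ± 0.592 and 9.50 ± 0.0944, a limma difference of 0.26 (SE 0.328, adjusted p = 0.874). All 3 high males lay below all 3 low males, while the female ranges overlapped. Over all tested probe sets, 6.81% had all high males below all low males, and 13.7% had male groups that did not overlap in either direction. The interaction, the male difference minus the female, was -1.36 (SE 0.463, unadjusted p = 0.0134, limma adjusted p = 0.743) and -1.07 without pig 301, and 0 of 35791 probe sets (0%) passed. The other HNF4G probe sets, of means 7.32 and 5.94, differed by -1.65 and -0.96 in males (limma adjusted p = 0.286 and 0.44). In females they differed by -0.42 and -0.22 (limma adjusted p = 0.834 and 0.891). The opposite sign in females was thus seen in the main HNF4G probe set only. KLF4 differed by -0.51 in males (SE 0.207, limma adjusted p = 0.529) and by -0.12 in females. KLF5 had an interaction of -0.63 (SE 0.304, limma adjusted p = 0.746), with -0.25 in males and 0.38 in females. All 8 main probe sets had a negative estimate in males, against 47.7% of all tested probe sets, with a median of -0.20 against 0.02. Without pig 301, 6 of 8 did, against 49.6%. Of the members' 22 tested probe sets, 17 were negative in males, and 15 without pig 301. These estimates share the same male arrays and are not independent.

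Between the sexes, 6 probe sets of 35791 (0.0168%) passed, none of a member. GATA4 had the largest male minus female difference relative to its error, -0.24 (SE 0.103, limma adjusted p = 0.526), followed by HNF4A at -0.20 (SE 0.0976, limma adjusted p = 0.558). The other 6 lay between -0.15 for CDX2 and 0.21 for ONECUT2. Without pig 301 that of ONECUT2 was 0.46 (SE 0.189, limma adjusted p = 0.307).

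Of 35 other gut transcription factors listed, 28 had a probe set and 27 were tested. None passed for feed efficiency, where MAF had -0.62 and PPARG -0.47 (limma adjusted p = 0.639 and 0.666) and the median of the 27 was -0.04. On the absorptive score 1 of 27 rose, NR1I3 at 0.93 (SE 0.158, limma adjusted p = 0.0172), and 0 fell. SOX9 had -0.52, EHF -0.69 and NR1I2, the pregnane X receptor, 0.47 (limma adjusted p = 0.0515, 0.0536 and 0.0799). The median slope of the 27 was 0.05, against 0.15 for the 8 members and -0.02 for all tested probe sets. Without pig 301 none of the 27 passed, with NR1I2 at 0.82 and NR1I3 at 1.11 (limma adjusted p = 0.424 and 0.453).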

How the data were processed

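The deposited table held log2 values for 47845 probe sets on 12 arrays, 1 array per pig. The submitters' processing notes name GCOS 1.1.1. How the authors corrected background, summarized probes and normalized arrays is not stated in the labels or the table. The values were used unchanged. Control probe sets (123) were dropped, which left 47722, and 26426 of these carried 1 gene symbol, 0 carried several and 21296 carried none. RefSeq's Sscrofa11.1 gene table served to update 446 symbols and for nothing else. Probe sets with a mean above the 25th percentile, 2.29, were tested (35791, of which 22 of the members' 25).

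Differences and slopes came from limma 3.58.1 (R 4.3.3), adjusted over all tested probe sets with the Benjamini-Hochberg method at 0.05, all two-sided. Feed efficiency and sex entered 1 additive model, the interaction came from the 4 means of group and sex, and slopes used the absorptive score with both terms. Correlations had two-sided permutation p-values (100000 resamples, exact for 6 pigs), computed in Python 3.11.15 with SciPy 1.17.1. The fits were tested on simulated data. Alternatives were no filter or the 50th percentile, quantile normalization, median centring, array weights, array spread as a covariate, the mean of all probe sets of a gene, and each pig left out. For feed efficiency no sex term was also tried, and for slopes no group terms, a score from z-scores and the pan-epithelial score as a covariate. The GC-rich background as a covariate, and slopes without pigs 301 and 324, were added after the data were seen. Genes named from the other lists were up to 4 per list with the smallest unadjusted p, or, for pig 301, chosen after their values were seen. The most alike genes were the 3 of highest r. The members and lists were chosen with earlier results of these data known. With 12 arrays, precision is set by their number.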

Additional observations from a re-analysis of the deposited data

Results flagged for a closer look

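In 48 groups of 6 pigs checked for a single value far from the rest, 4 held one, and chance alone gives about 1 group in 20. CDX2 in the high group was 7.19 in pig 301, with a gap of 0.745 of the group's range. The absorptive score in the high group was 7.41 in the same pig (gap 0.821), and the stomach gene score was 7.17 (gap 0.782). The score of 4 measured B cell genes was 6.24 in pig 307 of the low group (gap 0.756).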

How the results depend on the processing

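No paired analysis was possible because the labels give each pig its own identifier and the replicate numbers follow accession order only. Over both sexes, no probe set was called for feed efficiency in any alternative; within males, 1 was called without pig 301 (limma adjusted p = 0.0436), none of a member. With a positive slope, 495 probe sets passed, against 791 with the 50th percentile filter, 879 after quantile normalization, 154 with array weights, 319 without group terms, 221 with the pan-epithelial score, and 0 without pigs 301 and 324, a setting chosen after seeing the data. With a negative slope, 226 passed, against 364, 601, 42, 126, 91 and 0 in the same order, and 469 with array spread. The members called for a slope went from 1 to 2 with the 50th percentile filter (KLF5 joined) and to 0 with array weights, the mean of all probe sets (ONECUT2 slope 0.30), no group terms, the pan-epithelial score, and without pigs 301 and 324. Leaving out 1 pig gave 1 to 593 positive and 0 to 360 negative slopes and 0 to 2 members: 186 and 68 without pig 307, 301 and 116 without pig 309, 316 and 128 without pig 318, 143 negative without pig 310 and 360 without pig 317. KLF5 was called without pig 302 (limma adjusted p = 0.0421).

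Estimates near 0 changed sign, none of them a call. For feed efficiency, GATA6 was 0.042 after quantile normalization, 0.10 with array spread and 0.035 with the GC-rich background. With array spread HNF4A was -0.023, KLF5 -0.070 and ONECUT2 -0.20, and ONECUT2 was -0.0081 with the mean of all probe sets. For sex, KLF4 was -0.030 with median centring, HNF4G -0.032 and ONECUT2 -0.053 with array spread, and HNF4A 0.0025 and HNF4G -0.24 with the mean of all probe sets. For the interaction, GATA4 was -0.0027 with median centring, CDX2 0.054 with array weights, and CDX2, GATA4 and HNF4A were 0.18, -0.099 and 0.16 with the mean of all probe sets. The slope of KLF4 was 0.014 with median centring, 0.054 with array weights, 0.00038 with array spread, 0.014 with the mean of all probe sets, 0.063 without group terms, 0.010 with z-scores and 0.26 without pigs 301 and 324, where GATA4 was -0.32.

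Leaving out 1 pig, feed efficiency ran from -0.067 to 0.035 for GATA6, -0.0019 to 0.066 for HNF4A, -0.0087 to 0.19 for KLF5 and -0.018 to 0.36 for ONECUT2. Sex ran from -0.051 to 0.30 for HNF4G and -0.052 to 0.11 for KLF4. The interaction ran from -0.23 to 0.11 for CDX2, -0.034 to 0.15 for GATA4 and -0.83 to 0.014 for ONECUT2. Slopes ran from -0.24 to 0.089 for GATA4, -0.013 to 0.31 for GATA6 and -0.094 to 0.37 for KLF4. Correlations with the score ran from -0.088 to 0.872 for CDX2, -0.611 to 0.576 for GATA4 and -0.026 to 0.32 for KLF4. The r of KLF5 was 0.329 with the mean of all its probe sets. The cause of these changes was not tested.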
